A study of Mus musculus with 2 samples.

Results

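The cells described here were postnatal mouse pituitary cells whose barcodes held at least 1 UMI (unique molecular identifier, a counted transcript) of both Cdkn1a and Dll1. They also had few UMIs of cell cycle genes and of the lineage genes limited below, which did not include Pomc or Gh. They numbered 199 of 8009 barcodes in the male library (2.48%, 95% interval 2.15 to 2.85) and 180 of 5604 in the female library (3.21%, 2.77 to 3.71), or 379 of 13613 in all. A barcode was a member when it had at least 1000 genes, a mitochondrial share of at most 10%, Smoc2 at most 1 UMI, Cga under 1000 CPM (UMIs per 1000000 UMIs), Pou1f1 at most 1 and Col1a1 plus Col3a1 at most 2. The sum of 7 cycle genes (Mki67, Top2a, Cenpf, Birc5, Ccnb1, Cdk1 and Ube2c) had to be at most 3. Members were thus chosen by their measured UMIs, and the levels of the genes named here in them are descriptions.

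The study isolated SOX9iresGFP+ve cells by sorting and profiled them by droplet single-cell RNA-seq, with 1 library from male and 1 from female pituitaries. All animals carried Sox9iresGFP/+, a GFP reporter in the Sox9 locus, and were taken at postnatal day 3, with 3 pituitaries pooled in each library and no treatment named in the labels. Both samples are labelled as stem cells, but a cell that no longer makes SOX9 can still carry GFP and be sorted. Since each sex had a single library and cells are not replicates, no test was made, and every interval below covers counting error only.

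Cdkn1a encodes p21, an inhibitor of cyclin-dependent kinases induced when cells leave the cycle. Dll1 is a Notch ligand. In lateral inhibition a cell with much ligand activates Notch in its neighbours, which then express HES1 and related repressors and stay undifferentiated, while the ligand-bearing cell keeps proneural factors and begins to differentiate.

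The male library held 10569 barcodes and 106039887 UMIs, of which 75.8% of barcodes passed the filter, and the female library 5796 barcodes and 62897759 UMIs, of which 96.7% passed. The members' median depth was 12205 UMIs (range 2393 to 59159) in the male and 10437 (1796 to 55135) in the female library, and their summed UMIs were 2741757 and 2080153. The libraries shared 19 barcode sequences. Members were described beside a quiescent reference with Sox2 at 1 UMI or more, no Lef1 and no Dll1 UMI and the members' other limits (2111 male and 2473 female barcodes, median depth 8938 and 8626 UMIs). Late Smoc2 cells, with at least 2 UMIs of Smoc2 and at least 1 of Lef1, were the second comparison (755 and 561 barcodes, median 14308 and 13075). Smoc2 encodes a secreted matricellular protein.

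Of the barcodes that passed the filter, 564 male and 385 female ones had both Cdkn1a and Dll1. Applied in turn, the limit on Smoc2 removed 262 and 162 of these and that on cycle genes 74 and 34, while the limits on Cga, Pou1f1 and the collagens each removed at most 11. Members lay close to the threshold for the genes that define them. A single UMI of both genes was all that 43 male and 45 female members had, and Cdkn1a reached at most 23 and 13 UMIs and Dll1 at most 8 in either library. At the Smoc2 limit, 44 and 46 members had exactly 1 UMI, and 37 and 42 barcodes with 2 UMIs stayed just outside. Most members, 164 and 149, had no UMI of any of the 7 cycle genes, 2 and 3 stood at the limit of 3, and 1 and 3 barcodes stood just outside at 4.

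Cdkn1a and Dll1 UMIs occurred together. Among barcodes that met all the other limits, Cdkn1a was seen in 30.6% of those with Dll1 and 10.0% of those without in the male library, and in 26.0% and 9.48% in the female library. With barcodes thinned to 5000 UMIs, shallower ones left out and the limits applied again to the thinned counts, the shares were 20.6% and 9.26% in the male and 20.1% and 8.86% in the female library. Cdkn1a lies on mm10 chr17:29090976-29100727 (plus strand) and Dll1 on the same chromosome at chr17:15367354-15376872 (minus strand).

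The markers that name the early differentiating state were higher in members than in the quiescent reference. They were chosen with earlier results of these same data known, so their levels are no test of the name. Scx, a bHLH factor best known from tendon, had 92.3 against 23.4 CPM (here of the UMIs summed over a group) in the male and 91.3 against 21.3 in the female library, a fold of 3.95 (95% interval 3.38 to 4.6) and 4.28 (3.6 to 5.07). Mycl, a MYC family transcription factor, had 231 against 34.6 CPM in the male and 178 against 28.1 in the female library, or 6.67-fold (5.99 to 7.42) and 6.36-fold (5.58 to 7.23). Rph3a, a RAB3 effector in vesicle exocytosis, had 64.2 against 12.6 CPM and 82.2 against 19.6, or 5.09-fold (4.19 to 6.18) and 4.2-fold (3.5 to 5.02). Lef1, a WNT-responsive DNA-binding factor, was at 72.2 and 76.9 CPM in members, and its absence from the reference was set by the rule.

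**Figure D1:**
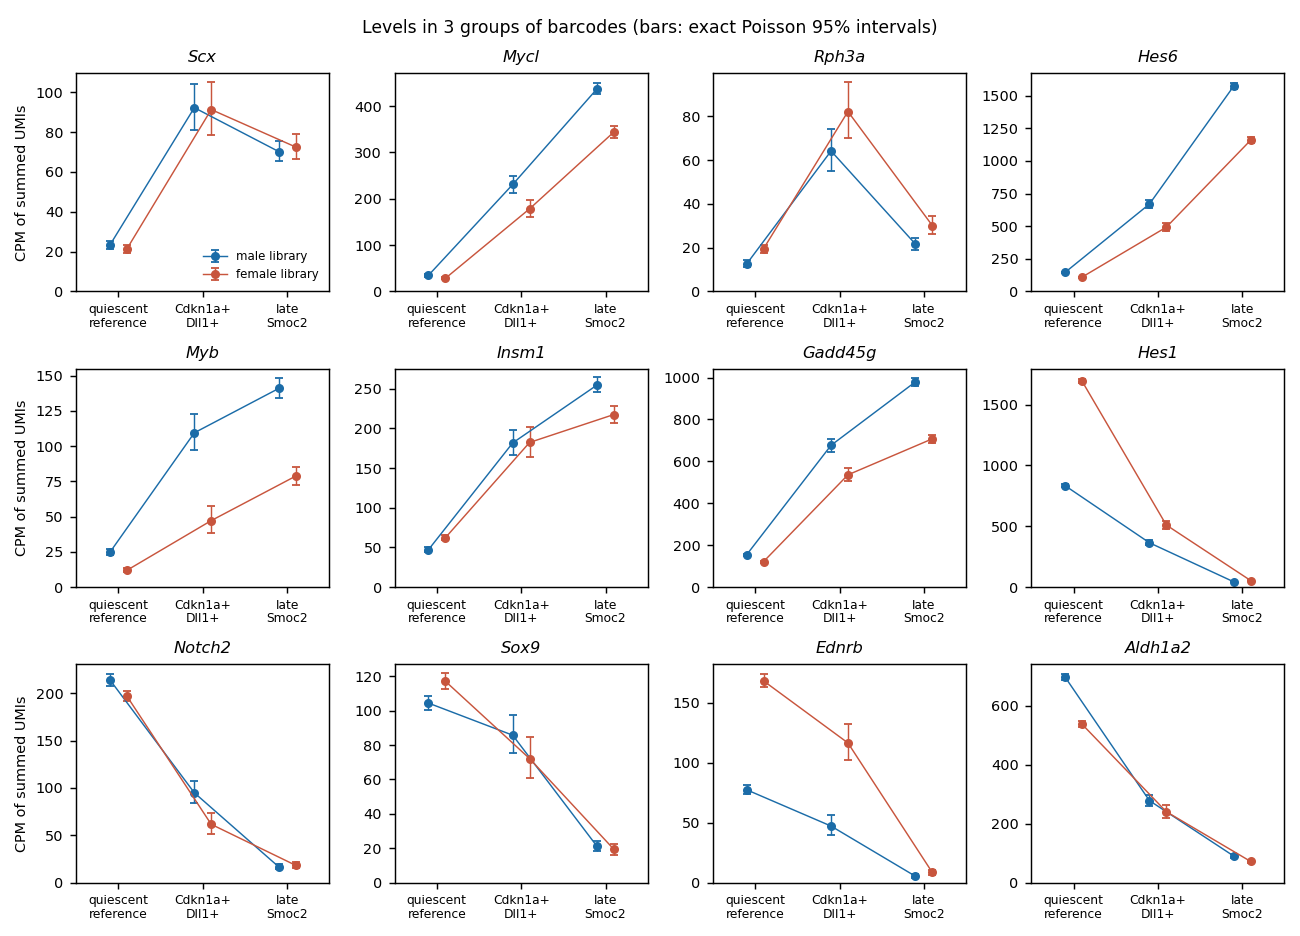
Levels of 12 genes (y axis, CPM of summed UMIs, each panel with its own scale from 0) in the quiescent reference, the Cdkn1a+ Dll1+ members and late Smoc2 cells, with the male library in blue and the female in red and bars for exact Poisson 95% intervals. Scx and Rph3a had their highest value in members, 92.3 and 64.2 CPM in the male library, whereas Mycl and Hes6 were higher again in late cells and Hes1, Notch2 and Aldh1a2 were lower there.

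Stem cell genes were still present in members. Sox2, the transcription factor of pituitary stem cells, stood at 538 and 686 CPM against 566 and 721 in the reference, which required it, and 356 and 410.0 in late cells. Sox9, the locus that carries the reporter, was at 85.7 and 72.1 CPM against 104 and 117, or 0.821 and 0.615 of the reference level, and at 21 and 19.3 in late cells. The eGFP transcript itself was at 14.2 and 6.73 CPM in members, 23.4 and 16.5 in the reference and 4.52 and 2.46 in late cells. Thus reporter and stem markers in members lay between the flanking groups or close to the reference.

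Other stem genes ranged from lower to near the reference level. Aldh1a2, which makes retinoic acid, had 278 against 697 CPM in the male and 240.4 against 538 in the female library. Ednrb, the endothelin B receptor, had 47.1 against 77.3 and 116 against 168 CPM, less than a 2-fold difference, and 5.23 and 8.41 in late cells. Cdh1, the epithelial cadherin, was at 13.5 and 15.4 CPM in members, 14.4 and 21.2 in the reference and 14.8 and 16.7 in late cells. Of 23 tested genes in the stem list, none was called higher and 2, Aldh1a2 among them, were called lower. Over all tested genes 1.22% were called higher and 1.7% lower. The stem list's median log2 fold was -0.27 for males and -0.33 for females, beside 0.03 and 0.02 over all tested genes.

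A gene was called when it differed at least 2-fold in the same direction in both libraries, provided that either group reached 20 CPM and both together 20 UMIs in each library, with the rule's genes left out. Of 6057 genes tested against the reference, 74 were higher in members (1.22%) and 103 were lower (1.7%). The members were picked by UMIs of the same cells, so these counts are a description. The reference held no Lef1 UMI by rule, whereas members could hold them, so genes that go with Lef1 differ partly through that limit.

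**Figure D2:**
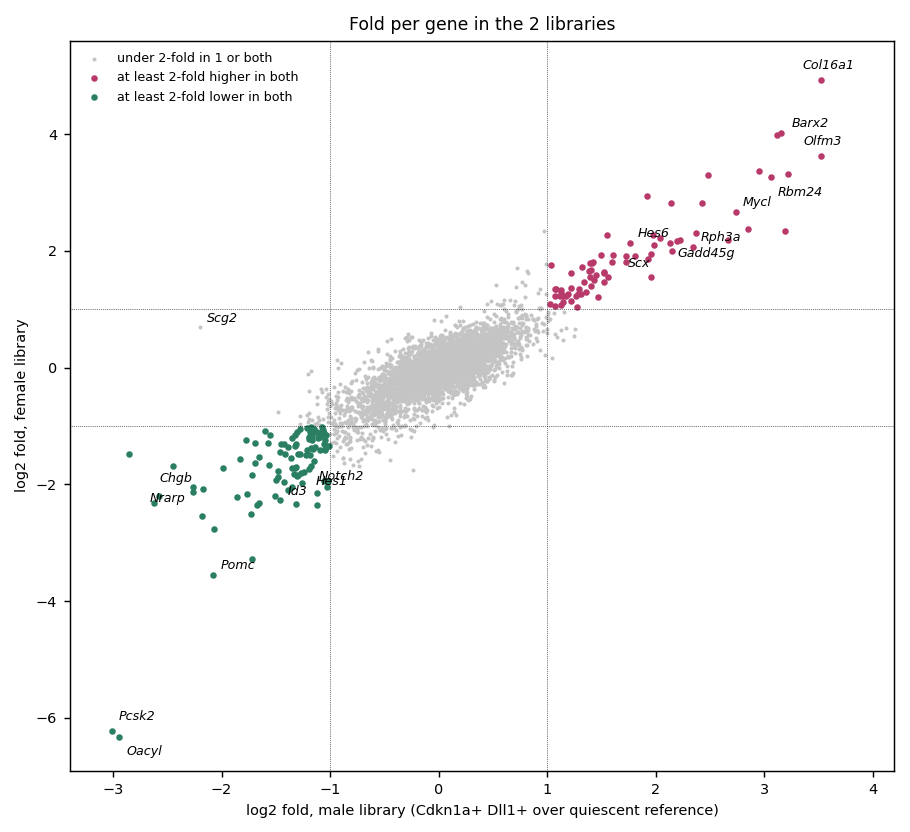
Each point is 1 of 6057 tested genes, with the log2 fold of members over the quiescent reference in the male library on the x axis and in the female library on the y axis, dotted lines at 2-fold, 74 genes called higher in pink and 103 called lower in green. Col16a1 lies farthest up, at 11.5-fold and 30.3-fold, and Scg2 lies alone to the left, lower in the male library only.

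Of the Notch targets named here, Hes1, Hey2 and Nrarp were lower in members. Hes1, the repressor that Notch induces, had 364 against 834 CPM in the male and 510.1 against 1695 in the female library, or 0.437 (0.409 to 0.465) and 0.301 (0.283 to 0.32) of the reference level. Hey2, another Notch-induced repressor, had 19.7 against 42.7 and 9.61 against 42.7 CPM. Nrarp, a Notch target that limits the pathway, had 7.66 against 36.8 and 7.69 against 31.7 CPM. Hey1 was nearer to the reference, at 120.0 against 183 and 93.7 against 184 CPM, or 0.655 and 0.51 of its level.

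Among receptors and ligands other than Dll1, Notch2 was lower. Notch2 had 94.8 against 214 CPM in the male and 61.5 against 197 in the female library, or 0.443 and 0.312 of the reference. Notch1 stood at 26.3 against 25.6 and 28.8 against 32.5 CPM, a fold of 1.02 and 0.888. Jag1, a ligand of another class, had 18.2 against 29.2 and 11.1 against 26.5 CPM. Dlk1, a non-canonical ligand abundant in the pituitary, had 1374 against 2644 and 1015 against 2480.2 CPM. Rbpj, the DNA-binding partner of the cleaved receptor, was at 82.8 against 65.6 and 125 against 91.2 CPM. Of 14 tested Notch genes, Hes6 was higher and Nrarp, Notch2, Hey2 and Hes1 were lower, with a list median log2 fold of -0.36 and -0.57. Over all tested genes 1.22% were higher and 1.7% lower, with a median of 0.03 and 0.02.

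The list of proneural, neuroendocrine and related genes gave the most higher calls of any list, 9 of 18 tested, with 2 lower. Over all tested genes 1.22% were higher. The list's median log2 fold was 0.99 and 0.94, beside 0.03 and 0.02 over all tested genes. Scx and Mycl, 2 of the 9, are among the markers that name these cells, so their calls add nothing independent. Hes6, which opposes HES1, had 669.6 against 146 CPM in the male and 492 against 109 in the female library, or 4.59-fold (4.33 to 4.86) and 4.5-fold (4.18 to 4.84). Insm1, a zinc-finger factor of endocrine differentiation, had 182 against 46.8 and 182 against 61.9 CPM. Also higher were Dcx, a microtubule-binding protein of immature neurons, Ebf1, Mycl, Myb, Scx and Tcf4, a partner of bHLH factors. Myb had 109 against 24.7 and 47.1 against 11.8 CPM, and Tcf4 628 against 299 and 680.2 against 329. The 2 lower genes were Id3 and Id4, which bind bHLH partners and block their action: Id3 had 72.6 against 199 CPM and 47.6 against 230.2.

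Shares of barcodes at equal depth showed the same order. After thinning to 5000 UMIs, Hes6 was seen in 81.6% of male members, 36% of the reference, 98.9% of late cells and 22.6% of collagen-rich barcodes (Col1a1 plus Col3a1 at least 20 UMIs, cells of another type). In the female library the shares were 76.8%, 28.3%, 98% and 13.8%. Mycl was seen in 61.1% of male and 46.3% of female members, in 11.4% and 10.6% of the reference and in 4.72% and 1.81% of collagen-rich barcodes. Hes1 was seen in 40.0% and 44.6% of members, 81.9% and 90.1% of the reference and 6.33% and 7.5% of late cells. Rph3a was seen in 27.4% and 29.4% of members, above the 9.56% and 12.9% of late cells and the 1.18% and 0.362% of collagen-rich barcodes.

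**Figure D3:**
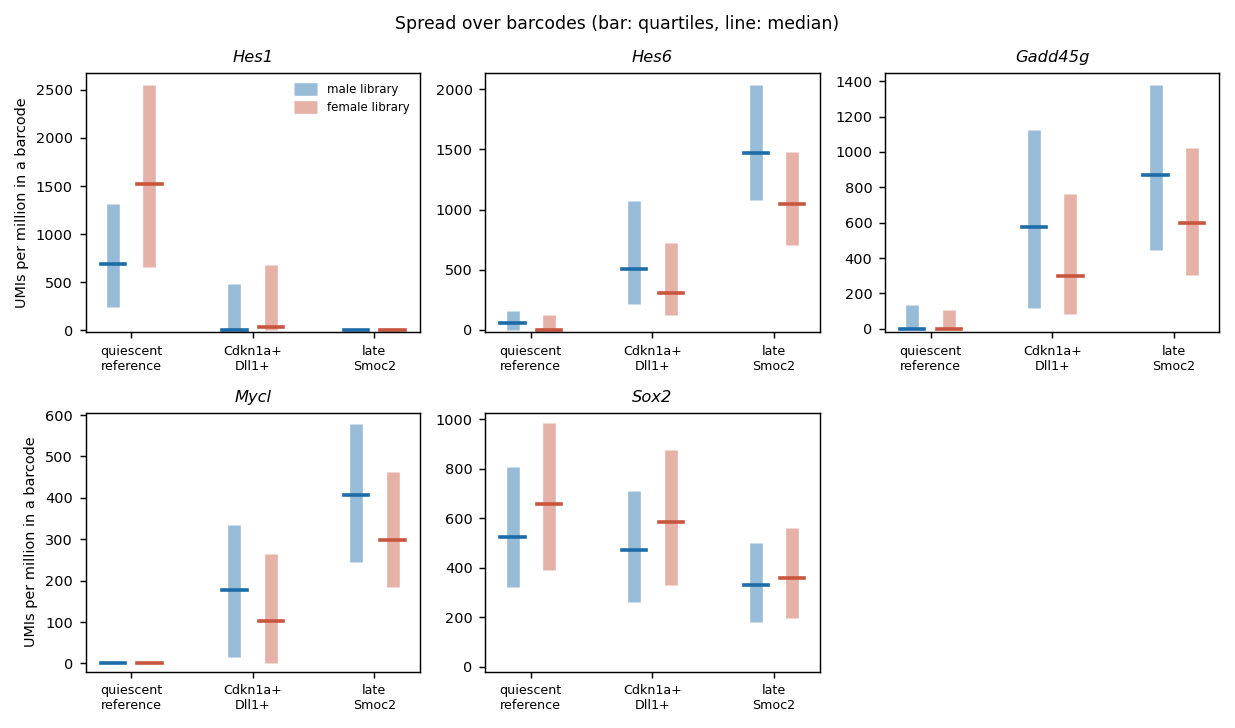
Spread over single barcodes of 5 genes (y axis, CPM within a barcode) in the reference, members and late Smoc2 cells, with boxes from the lower to the upper quartile, a line at the median, and the male library in blue and the female in red. Hes1 had a median of 0 in male and 31.7 CPM in female members with upper quartiles of 483 and 683, and Hes6 had medians of 509.98 and 304.5.

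Hes6 without Hes1 was the most frequent combination of the pair among members. Of members thinned to 5000 UMIs (190 male and 177 female), 57.9% and 51.4% had Hes6 without Hes1, 16.3% and 19.2% had Hes1 without Hes6, 23.7% and 25.4% had both, and 2.11% and 3.95% had neither. Members with 2 or more UMIs of Dll1 had less Hes1 than members with 1, at 268 against 465 CPM in the male and 357 against 669 in the female library. Their Hes6 was at 774 against 559.9 CPM and 538 against 445. This was not particular to Dll1, as a split by Cdkn1a, also a gene of the rule, gave the same directions. Members with 2 or more UMIs of Cdkn1a had Hes1 at 332 against 414 CPM in the male and 427 against 648 in the female library. Hes6 was at 709.5 against 607 CPM and 586 against 337 in that split. Both splits grade members by the low counts that chose them, and the sets with 2 or more UMIs were deeper. For the Dll1 split, median depth was 12537 against 11580 UMIs in the male and 10702 against 10172 in the female library. For the Cdkn1a split it was 12688 against 11346.5 and 10998 against 9187. The part of depth in these differences was not tested.

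Promoter sequence is shown for 4 genes, Dll1 itself and 3 called higher, because their 250 bases before the start of transcription hold the hexamer CAGCTG, 1 spelling of the E-box that proneural bHLH proteins can bind. The sequences are from RefSeq on GRCm38.p6, written 5′ to 3′ on the gene's strand, with the hexamer in capitals. Dll1 is at chr17:15376933-15377182 (minus strand) and its hexamer begins 132 bases before the start. For Hes6, at chr1:91414039-91414288 (minus strand), the hexamer begins 171 bases before. For Gadd45g, at chr13:51846425-51846674 (plus strand), it begins 55 bases before, and for Col16a1, at chr4:130047590-130047839 (plus strand), 42 bases before.
Dll1: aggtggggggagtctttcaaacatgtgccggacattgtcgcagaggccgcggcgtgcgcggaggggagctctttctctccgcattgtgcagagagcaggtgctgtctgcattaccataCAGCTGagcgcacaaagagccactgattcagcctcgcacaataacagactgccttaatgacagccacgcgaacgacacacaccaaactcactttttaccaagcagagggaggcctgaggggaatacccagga
Hes6: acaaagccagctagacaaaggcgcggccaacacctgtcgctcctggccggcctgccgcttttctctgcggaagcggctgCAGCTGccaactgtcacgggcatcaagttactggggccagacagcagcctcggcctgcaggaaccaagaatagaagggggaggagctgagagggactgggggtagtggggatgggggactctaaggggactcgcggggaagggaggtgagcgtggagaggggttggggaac
Gadd45g: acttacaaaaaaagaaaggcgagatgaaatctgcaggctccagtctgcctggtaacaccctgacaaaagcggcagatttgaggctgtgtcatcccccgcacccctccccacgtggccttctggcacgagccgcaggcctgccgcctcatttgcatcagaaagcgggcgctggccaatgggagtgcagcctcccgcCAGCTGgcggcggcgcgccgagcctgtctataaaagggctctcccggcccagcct
Col16a1: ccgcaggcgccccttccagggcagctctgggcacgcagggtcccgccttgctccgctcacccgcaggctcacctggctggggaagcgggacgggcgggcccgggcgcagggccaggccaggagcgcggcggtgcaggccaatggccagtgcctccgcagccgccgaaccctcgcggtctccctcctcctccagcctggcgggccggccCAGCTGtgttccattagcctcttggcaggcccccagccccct
The hexamer reads the same on both strands and was found in 13% of all 32851 windows of this length. Counted by gene, it was found in 3979 of all 27025 genes with a window (14.7%). The count was 606 of the 4797 tested genes that had a window (12.6%). Among genes called higher, 11 of the 52 with a window held it (21.2%), and among genes called lower 14 of 74 (18.9%). These gene shares count a hit in any window of a gene. For the 4 genes printed and for Cdkn1a, Mycl, Rbm24, Rph3a and Lef1, only the window at the most upstream start was read. In that window the latter 5 genes held none. A match is a run of letters in this window and was not read as a site.

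Growth-arrest genes other than Cdkn1a were mostly below 2-fold. Of 13 tested genes in the growth-arrest and p53 list, only Gadd45g was called higher and only Plk2 lower. The shares over all tested genes were 1.22% and 1.7%. Gadd45g, a growth arrest and stress protein, had 677 against 154 CPM in the male and 536 against 121 in the female library, or 4.38-fold and 4.41-fold. Cdkn1c (p57) had 736 against 436 and 1000.4 against 474 CPM, or 1.69-fold and 2.11-fold, while Cdkn1b (p27) had 68.6 against 89.0 and 72.1 against 95.6. Btg2, an antiproliferative gene, had 2336 against 1610.1 and 2619 against 1933 CPM.

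Mdm2, Bax and Ccng1, which are targets of p53 as Cdkn1a is, were within 2-fold of the reference. Whether p53 acted in members was not tested. Mdm2, which encodes the ubiquitin ligase of p53, had a fold of 1.01 for males and 1.29 for females, Bax 1.16 and 1.24, and Ccng1 1.55 and 1.02. Plk2, a polo-like kinase and also a p53 target, was lower, at 9.85 against 22.0 and 10.1 against 23.8 CPM. The whole growth-arrest and p53 list had a median log2 fold of 0.56 and 0.37, beside 0.03 and 0.02 over all tested genes. Of 9 tested cycle genes outside the rule, none was higher and Ccnd1 and Gmnn were lower, beside 1.7% lower over all tested genes. Ccnd1, the G1 cyclin, had 115 against 289 and 109 against 275 CPM, and Gmnn, the replication licensing inhibitor geminin, 15.3 against 38.2 and 12.0 against 29.8.

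The list of WNT genes, which was not limited to response genes, gave a single call among 10 tested, a higher one. The share called higher over all tested genes was 1.22%. Axin2, a feedback target of WNT signalling, had 43.8 against 16.3 CPM in the male and 50 against 17.7 in the female library, or 2.69-fold and 2.83-fold, and the list's median log2 fold was 0.00 and -0.12. Nkd1, another feedback target, had a fold of 1.42 and 1.46. Sp5, a direct WNT target, had 20.8 against 2.52 and 14.4 against 1.52 CPM, with the female members under the 20 CPM floor. Of 3 tested hedgehog genes none was called, and Ptch1, the receptor and target, stood at 57.3 against 57.9 and 62 against 69.3 CPM.

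The genes with the highest folds outside these lists included Col16a1, a fibril-associated collagen, at 86.8 against 7.56 CPM in the male and 113 against 3.72 in the female library, or 11.5-fold (9.37 to 14.1) and 30.3-fold (23.6 to 39.3). Olfm3, a secreted olfactomedin, had 24.8 against 2.15 and 27.4 against 2.21 CPM. Rbm24, an RNA-binding regulator of splicing, had 54.3 against 5.82 and 63.9 against 6.41 CPM. Barx2, a homeodomain factor, had 30.3 against 3.39 and 47.1 against 2.9 CPM. In late cells Rbm24 was at 232 and 229.6 CPM and Col16a1 at 353 and 338, while Olfm3 was at 34.8 and 33 and Barx2 at 73 and 74.2, less than 2-fold above members in 1 or both libraries. With a reference that had no limit on Smoc2, Cga, Pou1f1 or the collagens, the folds of Col16a1 were 5.44 and 9.35 and those of Rbm24 2.62 and 4.3.

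Others among the 15 highest were the transporters and receptors Slc7a5 (8.35-fold and 9.61-fold), Slco3a1 (5.37 and 7.07) and Lrp4 (5.6 and 9.83), and the neuronal genes Pdzrn4 (8.71 and 15.8), Pex5l (7.72 and 10.3) and Dpysl5 (4.68 and 4.58). Cartpt, the CART neuropeptide precursor, had 74.8 against 8.21 CPM in the male and 35.6 against 7.06 in the female library. Tex14 (7.22 and 5.18), Megf11 (5.17 and 4.97) and Ucma (6.37 and 4.53) completed them, beside Mycl.

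Lower genes included Pomc and its processing partners, which followed a subset of barcodes. Pomc, the prohormone of corticotrophs and melanotrophs, reached 5000 CPM or more in 128 male and 82 female reference barcodes, and in 3 male members and 1 female member, of which the highest had 338468 CPM. Gh passed that level in 7 and 19 reference barcodes and in no member. Over all barcodes Pomc stood at 0.237 (male) and 0.0856 (female) of the reference. Leaving out these barcodes from both groups gave 0.808 and 0.809, with Pomc at 149 and 46.1 CPM in members.

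Several of the 10 lowest folds moved with the same barcodes. Pcsk2, the prohormone convertase of melanotrophs, had folds of 0.124 and 0.0134 and Oacyl 0.13 and 0.0124, and without the Pomc-rich or Gh-rich barcodes both were under the floor. Tmem158 (0.163 and 0.2), Nap1l5 (0.167 and 0.217) and Chgb (0.222 and 0.236), a chromogranin, were under it too. Lower values that stayed without them were those of Mgll, a monoacylglycerol lipase, at 0.22 and 0.172 and then 0.194 and 0.164, of Dab2, an endocytic adaptor, at 0.208 and 0.228 and then 0.188 and 0.217, of Gstm7 at 0.238 and 0.148 and then 0.216 and 0.143, and of Nrarp at 0.208 and 0.242 and then 0.19 and 0.218. Hes1 was at 0.395 and 0.282 and Notch2 at 0.403 and 0.294 without them.

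Without the Pomc-rich and Gh-rich barcodes 88 genes were higher, of which 67 were among the 74, and 129 were lower, of which 86 were among the 103. Tcf4 was among the 7 higher calls lost.

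Secretory granule genes were mixed. Of 14 tested, Rph3a and Cplx2 were higher and Chgb, Pcsk1n, Syt1 and Chga lower, with a list median log2 fold of -0.41 (male) and 0.29 (female). Shares over all tested genes were 1.22% higher and 1.7% lower, and the median was 0.03 and 0.02. Cplx2, a complexin that acts on SNARE complexes, had 120.0 against 48.9 and 137 against 53.8 CPM. Syt1, a calcium sensor of exocytosis, had 37.9 against 135 and 46.6 against 138 CPM, or 0.282 and 0.339, and 0.478 and 0.484 without Pomc-rich and Gh-rich barcodes. Chga, a chromogranin, was at 0.252 and 0.304 with them and at 1.91 and 1.52 without. Chgb had folds of 1.21 and 2.24 and Pcsk1n of 0.762 and 0.854 without them, both under the floor, so that of the 4 lower calls that of Syt1 remained.

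Endocrine lineage genes gave no higher call. Of 3 tested gonadotroph genes only Gpha2, a glycoprotein hormone subunit, was called, at 59.8 against 204 CPM in the male and 21.2 against 94.8 in the female library. Foxl2, a gonadotroph factor, was at 9.85 and 9.61 CPM in members and 80.6 and 68.7 in late cells. Lhb was at 0 UMIs in male members, with 3 UMIs corresponding to 1.09 CPM, and at 1.44 CPM in female ones. Gh was the 1 tested gene of the POU1F1 lineage and was lower, as were Pomc, Pcsk2 and Oacyl, the 3 tested genes of the POMC lineage. None of these 4 calls held without the Pomc-rich and Gh-rich barcodes, where Gh had folds of 0.811 and 0.804.

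Markers of other cells were near 0 in members. All 5 endothelial markers had no UMI in male members and 3 of 5 had none in female ones, with 2 UMIs in all. Ptprc, the pan-leukocyte marker, had no UMI in either library, and immune markers summed to 3 UMIs in male and 27 in female members, 22 of them in 1 barcode. The mesenchymal markers summed to 6.57 and 3.37 CPM, with the rule's collagens part of that list. Immediate-early genes, which dissociation can induce, summed to 14115 and 13929 CPM in members, 14239 and 14841 in the reference and 8336 and 9645 in late cells, and none of 14 tested was called against the reference.

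Barcodes with only Cdkn1a or only Dll1 were set beside those with neither and those with both. These groups kept the members' other limits and held 260 male and 265 female barcodes with Cdkn1a only, 452 and 513 with Dll1 only, and 2328 and 2529 with neither. At this depth a barcode without a UMI can still express the gene. Median depth was 8805 UMIs for neither, 10781 for Cdkn1a only, 9859.5 for Dll1 only and 12205 for both in the male library, and 8631, 9387, 9386 and 10437 in the female library. None of these groups required Sox2. Pomc reached 5000 CPM or more in 198 male and 120 female barcodes with neither. It did so in 7 and 4 with Cdkn1a only, 10 and 5 with Dll1 only and 3 and 1 with both. The part of depth or of these Pomc-rich barcodes in the levels below was not tested. Hes6, Mycl and Hes1 had intermediate levels in both single-gene groups, but not every gene did: male Col16a1 was at 13.2 CPM with neither, 48.7 with Cdkn1a only, 87.5 with Dll1 only and 86.8 with both.

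Hes6 was at 173 CPM with neither, 444 with Cdkn1a only, 397 with Dll1 only and 669.6 with both in the male library, and at 123, 260.2, 298 and 492 in the female library. Mycl was at 41.3, 135, 107 and 231 CPM, and at 29.6, 94.4, 96.8 and 178. Hes1 ran the other way, at 777, 548, 579.9 and 364 CPM in the male and 1623, 1247, 1119.8 and 510.1 in the female library. In these 3 genes the intervals of both single-gene groups lay apart from those of neither and of both. Scx was nearer to members in barcodes with Cdkn1a only, at 75.8 and 57.2 CPM, than in those with Dll1 only, at 43.7 and 45.6, although the female intervals of the single-gene groups overlapped.

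**Figure D4:**
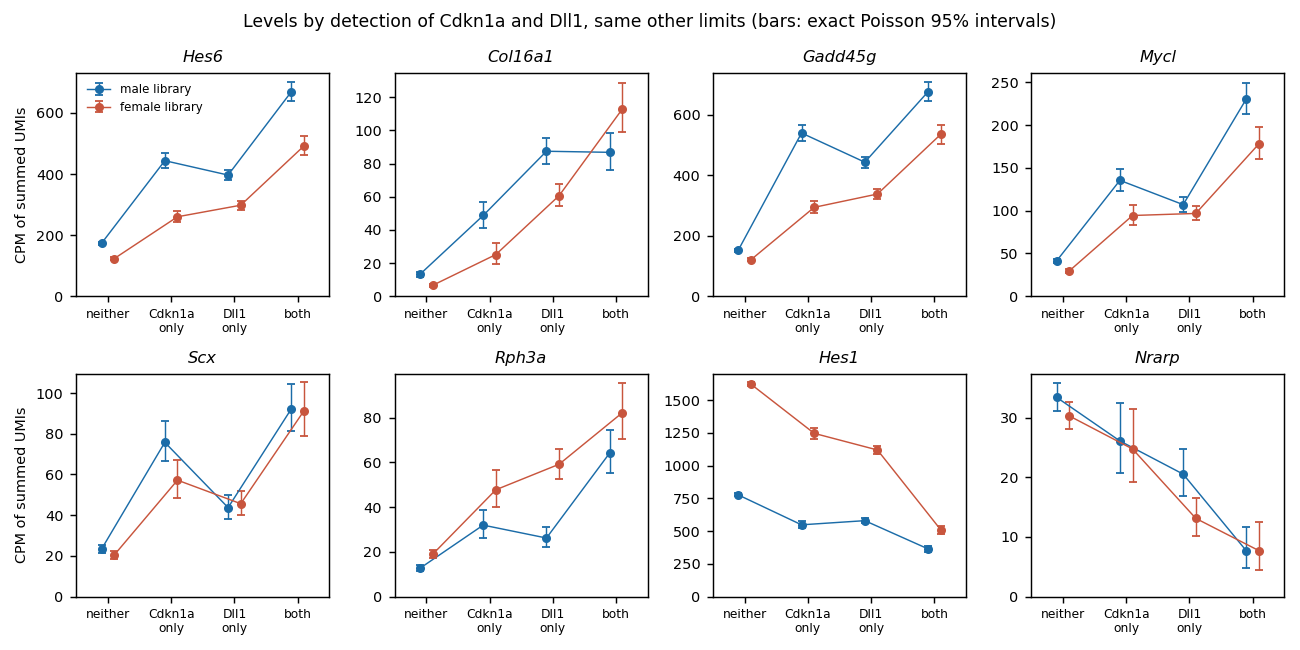
Levels of 8 genes (y axis, CPM of summed UMIs, each panel from 0) in barcodes with neither Cdkn1a nor Dll1, with only Cdkn1a, with only Dll1 and with both, the male library in blue and the female in red, with exact Poisson 95% intervals. Hes6 is at 173 CPM with neither and 669.6 with both in the male library, and Nrarp at 33.5 and 7.66.

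Members with a Lef1 UMI differed from those without. Lef1 was seen in 42.2% of male and 37.8% of female members (24.2% and 20.3% after thinning, beside 3.14% and 1.81% of collagen-rich barcodes). Most of these barcodes had Sox2 as well, 76 of 199 (38.2%) and 62 of 180 (34.4%), with 8 and 6 that had Lef1 without Sox2. Sox2 without Lef1 was seen in 110 (55.3%) and 109 (60.6%). The 84 and 68 barcodes with Lef1 had a median depth of 12901.5 and 11429 UMIs, and the 115 and 112 without it 11325 and 9306.

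Genes that were high in late cells were higher in the members with Lef1. Late cells were themselves chosen by at least 1 Lef1 UMI, so part of this likeness is set by the rules. Col16a1 was at 168 CPM with Lef1 and 23.4 without in the male library, and at 182 and 60.7 in the female. Mycl was at 354 and 135 CPM, and 244 and 129. Hes6 was at 976 and 431, and 626 and 391. Hes1 was at 147 with Lef1 and 533 without in the male and 323 and 651 in the female library, and Ednrb at 17.5 and 70.1, and 33.5 and 179. Rph3a did not follow this split, at 68.3 and 61.0 CPM in the male and 85.0 and 80.1 in the female library, and Insm1 was at 182 in both male sets and at 136 with Lef1 and 217 without in the female.

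**Figure D5:**
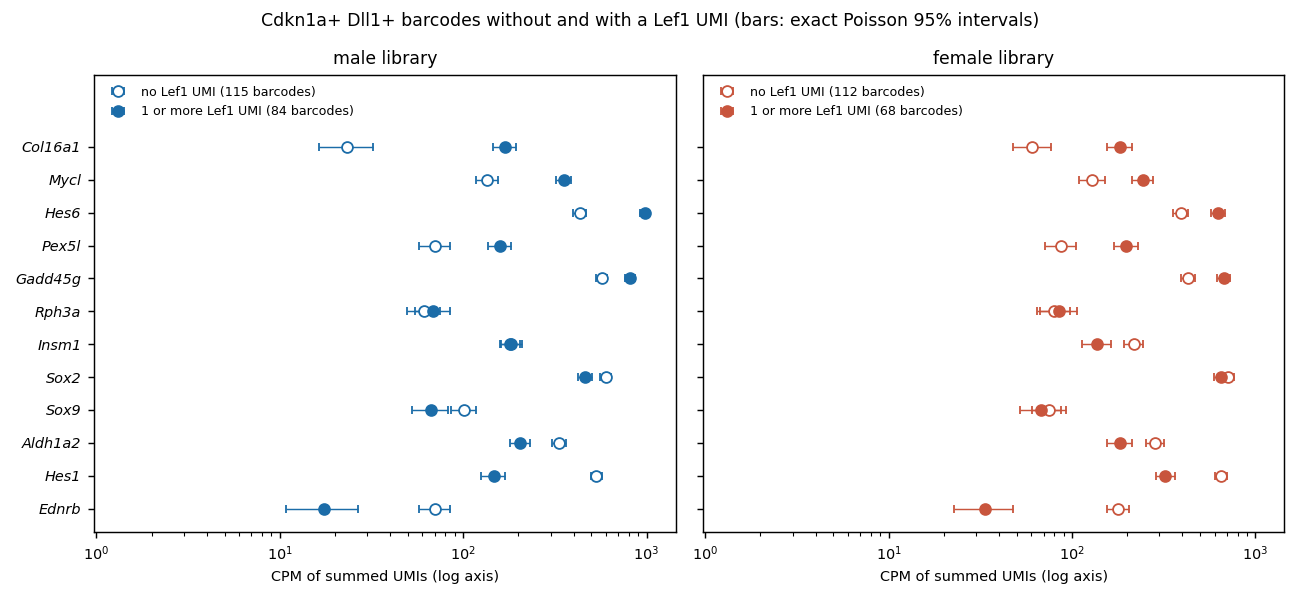
Levels of 12 genes in members (x axis, CPM of summed UMIs on a log axis) with open circles for barcodes without a Lef1 UMI and filled circles for those with 1 or more, in the male (left) and female (right) library, bars for exact Poisson 95% intervals. Col16a1 is at 23.4 and 168 CPM in the male library, while the circles of Rph3a overlap.

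Compared with late Smoc2 cells, members had more genes higher than lower. Of 5972 genes tested, 273 were higher in members (4.57%) and 89 were lower (1.49%), and the members' limit on Smoc2 is part of this contrast. Stem genes made up 11 higher calls of 21 tested, with no lower call and a list median log2 fold of 1.38 (male) and 1.26 (female), beside -0.04 and -0.02 over all tested genes. They included Sox9, Ednrb, Aldh1a2, Vim and Krt18, a simple-epithelium keratin at 515 against 86.8 CPM and 571 against 93.6. Among Notch genes Hes1, Notch2, Hey1 and Notch1 were higher and Hes6 and Dll3 lower. Rph3a was higher than in late cells, 2.97-fold and 2.73-fold.

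Among the highest folds over late cells were those of Cdh26, a cadherin-like protein, at 27.4 against 1.86 CPM in the male and 42.8 against 3.1 in the female library, of Prrx2 (10.2-fold and 9.81-fold), a homeodomain factor, of Cpxm2 (9.77 and 9.14), and of Anxa2 (9.92 and 9.08), a phospholipid-binding annexin. The lowest were Pou3f4, a POU factor of late cells, at 8.39 against 106 and 11.1 against 166 CPM, Neurod1, a bHLH differentiation factor, at 2.19 against 35.9 and 2.4 against 56.0, Cnpy1 (0.052 and 0.0581), Rasd1 (0.0752 and 0.0823) and Mybpc1 (0.0196 and 0.105). Isl1, a LIM homeodomain factor, was at 77.7 against 404 and 75 against 349 CPM. Shh, the hedgehog ligand, had 1 UMI in male members and none in female ones.

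Few genes differed 2-fold between male and female members, and with 1 library each, sex and library cannot be told apart. Of 3151 genes that reached 50 CPM in either library and had 100 or more UMIs over both, 19 were at least 2-fold higher in male members (0.603%) and 7 in female members (0.222%), and 14 and 5 of these differed likewise in the reference. The sex-linked transcripts followed the labels, with Xist, the X-inactivation RNA, at 673 CPM in female and 0.365 in male members and with Ddx3y and Eif2s3y in male members. Ednrb was 2.47-fold higher in female members (116 against 47.1 CPM) and 2.17-fold in the female reference. Hist1h2ap, a replication-dependent histone, had 78.8 CPM in male and 26.0 in female members, and Pomc was 10.8-fold higher in male members and 3.89-fold in the male reference. The Pomc value came largely from 3 male members and 1 female member, and without Pomc-rich and Gh-rich barcodes it was at 149 (male) and 46.1 (female) CPM in members and 184 and 57.1 in the reference.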

How the data were processed

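Single cells sorted as SOX9iresGFP+ve from Sox9iresGFP/+ pituitaries were counted by the authors with Cell Ranger 3.0.2 on mm10, and the deposited matrices hold raw UMI counts for 31055 features, 71 of which share a symbol with another feature. The cell-containing barcodes are those of the deposit. The methods name no doublet removal, and none was done here in the values reported. Groups of barcodes were cut by UMI rules, their counts summed within each library and expressed as CPM with exact Poisson 95% intervals. Folds have exact conditional binomial intervals and shares exact Clopper-Pearson intervals. PCR copies were removed by UMI, and all intervals cover counting error only.

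The members, gene lists and comparisons were chosen with earlier results of these data known. Named were the marker and list genes, the 15 highest and 10 lowest folds against the reference by the weaker library, the 5 each way against late cells and between the sexes. Alternatives were the study's barcode filter (at least 50 genes), 2 UMIs of both genes, a cycle sum of 0, Scrublet removal, thinning to 5000 UMIs, 2 other references, a floor of 50 CPM, 5 CPM added and means over cells. Leaving out barcodes with Pomc or Gh of at least 5000 CPM was chosen after seeing the data. Scripts ran in Python 3.11.15 with numpy 2.4.6, scipy 1.17.1, pandas 2.3.3 and scanpy 1.11.5 and were tested on simulated data. Gene positions came from GENCODE M21 (mm10), used here only. Promoters came from RefSeq (GRCm38.p6), and those of Scx, Hes1 and Insm1 were not analysed here. Some genes that the rule names are not reported here.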

Additional observations from a re-analysis of the deposited data

Results flagged for a closer look

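The folds of Scg2, Scg5 and Ccnd2 pointed in opposite directions in the 2 libraries, with intervals for counting error on opposite sides of 1, and with 1 library per sex the difference was not tested. Scg2, a granin of secretory granules, was at 0.217 of the quiescent reference in male members (95% interval 0.162 to 0.286) and at 1.62 in female members (1.3 to 2.01). Scg5, a chaperone of the prohormone convertase PCSK2, was at 0.821 (0.733 to 0.917) and 1.5 (1.33 to 1.68). Without barcodes rich in Pomc or Gh, Scg2 had folds of 1.73 and 3.82 and Scg5 of 1.62 and 1.99. Against late Smoc2 cells Ccnd2, a G1 cyclin, was at 0.896 (0.806 to 0.995) in the male library and 1.38 (1.25 to 1.52) in the female one. Outside the barcodes analysed, 3 male and 0 female barcodes failed the limits on gene number or mitochondrial share and met every other limit of the members.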

How the results depend on the processing

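No paired analysis was possible because each sex has 1 library without replicate numbers. With 1 library per sex, fold and share errors cover counting only, and at these depths an absent UMI is not an absent transcript. The share of members was 1.94% in the male library with the study's barcode filter, 0.724% and 1.05% (male and female) with 2 UMIs of both genes, 2.05% and 2.66% with a cycle sum of 0, and 1.61% and 2.10% after thinning to 5000 UMIs. Against the reference, 2 UMIs of both genes gave 113 higher and 214 lower genes beside 74 and 103, thinning gave 169 lower, a floor of 50 CPM gave 31 and 53, and 5 CPM added gave 66 lower. Against late cells, 2 UMIs gave 169 higher beside 273, and the 50 CPM floor gave 123 higher and 51 lower beside 89. A reference matched for depth (607 and 953 barcodes) gave 66 higher genes, 58 of them among the 74, and 80 lower, 65 of them among the 103. The reference without limits on Smoc2, Cga, Pou1f1 or the collagens gave 53 higher genes, all among the 74. It gave 72 lower, 69 of them among the 103. Thinning kept 57 of the 74 higher and 76 of the 103 lower calls. Scrublet marked 894 male and 269 female barcodes. Directions turned for Nap1l5, Chgb, Chga and Pomc. With thinning, Nap1l5 was at 2.44 and Chgb at 1.84 in the female library. Without Pomc-rich or Gh-rich barcodes, Nap1l5 was at 1.11 and 1.38, Chgb at 1.21 and 2.24, and Chga at 1.91 and 1.52. With the depth-matched reference, Nap1l5 was at 1.09 in the female library, Chgb at 1.01 and 1.25, and Pomc at 1.15 in the male. Of the folds of named genes, 534 values moved by less than their counting interval, 270 moved further and 12 turned.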

Other observations

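The genes in this paragraph were chosen after their values were seen. Chd7, a chromatin remodeller, was higher in members than in the quiescent reference, at 180.2 against 51.4 CPM in the male and 203 against 53.7 in the female library. Prox1, a homeodomain factor of many differentiating tissues, had 33.6 against 12.6 and 33.2 against 9.52 CPM, and 90.5 and 88.6 in late Smoc2 cells. Kit, a receptor tyrosine kinase, had 61.3 against 23.4 and 65.4 against 22.3 CPM. Bmp4, a secreted ligand, had 24.8 against 6.33 and 23.6 against 4.85 CPM. Igkc, the constant region of the immunoglobulin kappa chain, was also higher, at 78.8 against 27.4 and 39.9 against 13 CPM, and at 221 and 140.2 in late cells, while Ptprc had no UMI in members.

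The following genes were lower in members and were also picked from their values. Cyr61, a matricellular target of YAP, had 180.2 against 401 CPM in the male and 234 against 615 in the female library. Ctgf, another such target, was at 0.381 and 0.234 of the reference. Cxcl12, a chemokine, had 50 against 139.8 and 34.1 against 116 CPM. The glutathione transferase Gstm1 had 62.7 against 207 and 67.3 against 239.7 CPM, and Gstm2 was at 0.317 and 0.2. Igfbp3, a binding protein of insulin-like growth factors, was at 0.302 and 0.176.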
